A study of Homo sapiens with 4 samples.

Results

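The kinetochore is the protein assembly that forms on the centromere of each chromosome and holds it to the spindle microtubules during mitosis. CENP-A, a centromere-specific histone H3 variant, marks the site, the constitutive centromere-associated network (CCAN) binds to it, and the KNL1, MIS12 and NDC80 complexes (the KMN network) reach out from there to the microtubule. Checkpoint proteins gathered on the KMN network hold back anaphase until every chromosome is attached, and the chromosomal passenger complex with the kinase Aurora B releases faulty attachments. Most of these genes are transcribed mainly from S phase to mitosis, and in a bulk sample more cells in those phases and more transcript per cell cannot be told apart.

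The set described here holds 44 kinetochore and centromere genes of the 64253 genes in the count table, taken by gene name. The table names 43 of them, and CDCA8 was found by its gene identifier. A further 2 rows carry the names SKA1 and SPC25 under other identifiers and had 0 counts. RNA was sequenced from A549 cells, an established line of human lung adenocarcinoma, overexpressing NFATc2 (2 libraries) or NFATc2M (2 libraries), replicates 1 and 2 of each. NFATc2 is a calcium-regulated transcription factor, and NFATc2M is the same protein with a deletion in the DNA binding domain. Both were transfected with pENTER plasmids, and all 4 libraries came from cells in OPNc-CM, conditioned medium with the secreted isoform c of osteopontin, which was collected from HEK-293 T cells. The comparison asks which genes depend on a DNA-binding NFATc2 in that medium; cells without either plasmid were not analysed here. Nothing in the sources states that the replicates were separate cultures, so the p-values reflect the variation among these 4 libraries only, and that may be technical.

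Counts summed over genes came to between 21011786 and 23527259 per library. NFATC2 itself had 47791 and 58522 counts with NFATc2 against 54601 and 52689 with NFATc2M, and since counts for the gene include both forms, they check no label. Of 6 A549 markers, KRT8, KRT18, ALDH1A1 and AKR1B10 lay between 808 and 3901 CPM (counts relative to the TMM-scaled library size), while NKX2-1 and SFTPB had at most 4 counts in a library, and CDKN2A and CDKN2B, deleted in these cells, had 0. Of 6 markers of HEK-293 T cells 0 were called in edgeR (0 at an unadjusted p under 0.05), with levels from 0.42 CPM for NEFM to 80.3 CPM for INA. A gene was called at an adjusted p of at most 0.05 from edgeR's quasi-likelihood test together with a log2 fold change, NFATc2 over NFATc2M, of at least 0.26 in either direction. Among all 17459 genes tested, 856 were called higher and 652 lower; with upper quartile scaling the split was 662 and 864, and with library size scaling 556 and 707.

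All 44 genes passed the filter on low counts, with 96 (CENPQ) to 4865 (CENPF) counts in a library. With NFATc2, 15 of the 44 were called higher, against 4.90% of all genes tested, and 1, CENPT, was called lower, against 3.73% of all genes. The remaining 28 did not pass. The median log2 fold change of the set was 0.33, beside 0.00061 over all genes tested. In CPM, both NFATc2 libraries lay above both NFATc2M libraries for 27 of the 44 (27.2% of all genes) and below them for 2 (26.0% of all genes), and the groups overlapped for the other 15. Summed over the set, the libraries held 2172 and 2130 CPM with NFATc2, against 1759 and 1868 CPM with NFATc2M. The members were chosen with earlier results of these data known, so the counts are a description.

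**Figure D1:**
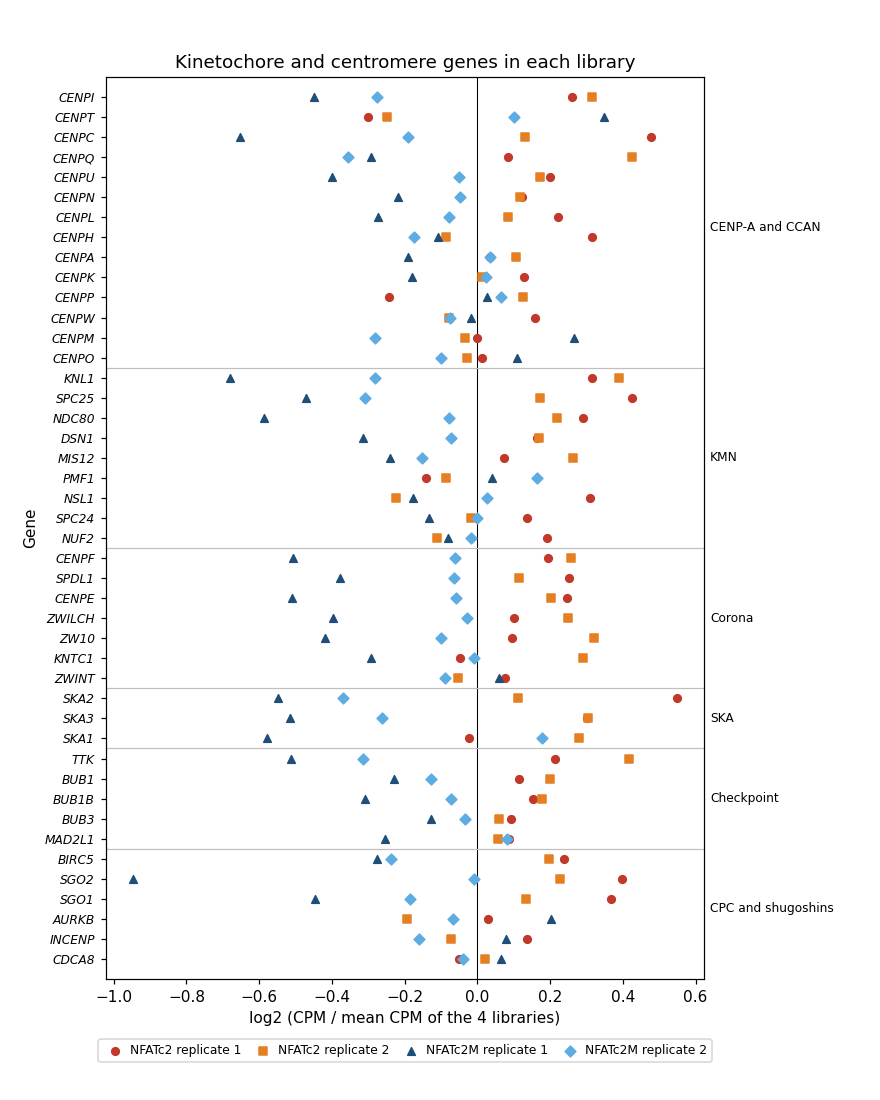
Level of each of the 44 genes in each of the 4 libraries, as the log2 ratio of its CPM to its mean CPM over the 4 libraries (x axis, no unit), by role from top to bottom; each symbol is 1 library. NFATc2M replicate 1 is the lowest library for 30 of the 44 genes, and NFATc2 replicate 1 is the highest for 22.

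Over the set the NFATc2M libraries lay apart, and the NFATc2 libraries lay close to each other. The median log2 ratio to the mean CPM of the 4 libraries was -0.27 and -0.073 in NFATc2M replicates 1 and 2. In NFATc2 replicates 1 and 2 it was 0.14 and 0.13. NFATc2M replicate 1 had the lowest CPM of the 4 libraries for 30 of the 44 genes (68.2%), whereas it was lowest for 34.0% of all genes tested. NFATc2M replicate 2 was lowest for 6 of the 44. Without NFATc2M replicate 1, edgeR called 0 of the 44 (9 genes higher in all, 0.0494% of those tested). In that fit the median log2 fold change of the 44 was 0.23, against 0.33 with all libraries. Without NFATc2M replicate 2, 19 were called higher, against 6.98% of all genes, and 1 lower. Without NFATc2 replicate 1, 5 of the 44 were called, all higher, against 1.35% of all genes, and without NFATc2 replicate 2, 4 were, all higher, against 0.958% of all genes.

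**Figure D2:**
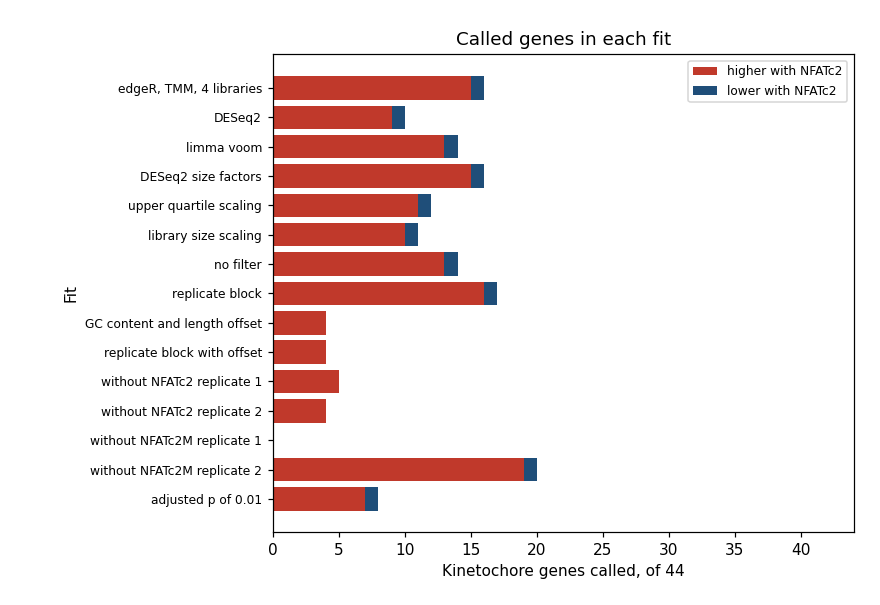
Number of the 44 genes called (x axis) in each fit (y axis), with genes higher with NFATc2 in red and genes lower with NFATc2 in blue. The count is 16 with all libraries, 0 without NFATc2M replicate 1 and 20 without NFATc2M replicate 2.

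As a set the genes were also lower in GC content, though over a wide range. Their exons had a median GC content of 41.0% (34.0% in CENPQ to 58.8% in INCENP), against 48.7% over all genes tested. Across the 44 genes the log2 fold change went down with GC content, with Pearson's r = -0.69 and Spearman's rho = -0.60. The same measure over 17163 tested genes with a known GC content gave r = -0.46 and rho = -0.56; all points share the same 4 libraries and genes are not independent replicates. Median GC content was 40.2% in the 15 genes called higher and 43.5% in the 28 not called, and CENPT, called lower, had 58.2%. BIRC5 (50.6%) was the one gene called higher with a GC content above 42.0%. By library, the deviation of the 44 genes from their mean log2 level correlated with GC content at r = -0.60 and -0.53 in NFATc2 replicates 1 and 2, and at 0.74 and 0.13 in NFATc2M replicates 1 and 2. Over the 17163 genes the same measure gave -0.35 and -0.41 with NFATc2, and 0.58 and 0.14 with NFATc2M. After an offset for GC content and exonic length, fitted per library, r was -0.13 across the 44. KNL1, SKA2, TTK and BIRC5 were then called higher (1.10% of all genes in that fit), and CENPT was not called (log2 fold change -0.30, edgeR adjusted p = 0.088). The median log2 fold change of the 44 was 0.18 with the offset. Whether the GC trend or the transfected protein set these differences was not tested.

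**Figure D3:**
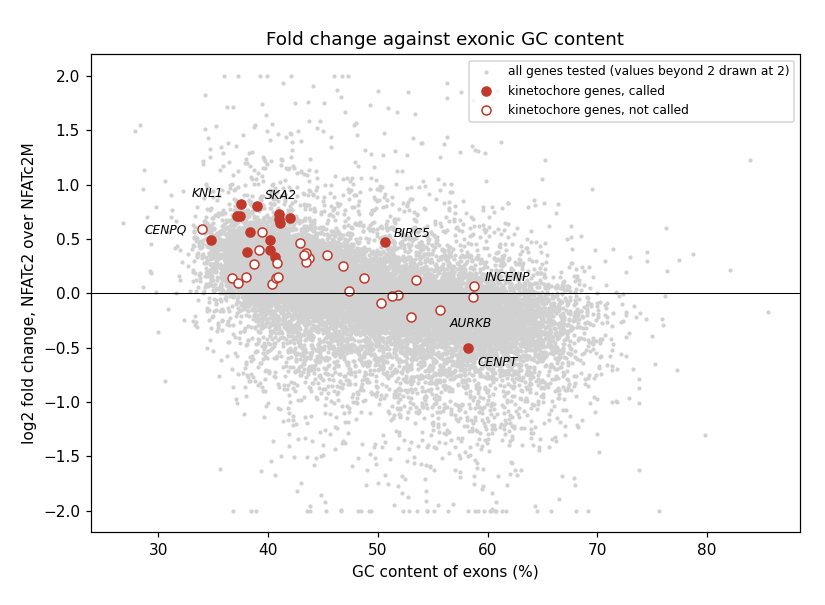
Log2 fold change of NFATc2 over NFATc2M (y axis) against GC content of the exons in percent (x axis) for all genes tested (grey) and for the 44 kinetochore genes (red, filled where called). The called genes lie at the left, from 34.8% to 42.0%, except BIRC5 at 50.6% and CENPT at 58.2%.

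Promoter sequences were at hand for 36 of the 44 genes, in RefSeq windows on GRCh38.p14 from 250 bases before to 50 bases after a start site (43 windows, since some genes have several). Genes that peak late in the cell cycle commonly carry a CHR element, which binds the DREAM and MYB-MuvB complexes, and CCAAT boxes, which bind NF-Y. The letters TTTGAA or TTTAAA, searched on both strands as CHR, stood in 21 of the 43 windows (48.8%) and in 24.0% of all 35116 windows in the table. CCAAT, on both strands, stood in 29 (67.4%) and in 34.6% of all windows. Both together were in 14 (32.6%), against 9.27% of all windows. Windows of the genes called higher held CHR letters in 8 of 14 and CCAAT in 10 of 14, and windows of genes not called in 13 of 28 and 19 of 28. The E2F letters TTTCCCGC or TTTGGCGC were in 3 of the 43 windows (6.98%) and in 2.27% of all. GGAAA, the core of an NFAT site, was in 30 (69.8%) and in 61.2% of all windows. Windows of the genes called higher held E2F letters in 0 of 14 and GGAAA in 9 of 14, and windows of genes not called in 3 of 28 and 21 of 28. Among the 16788 windows of genes tested, CHR letters stood in 17.1%, CCAAT in 34.0%, E2F letters in 3.18% and GGAAA in 58.2%. The reverse complement of GGAAA overlaps the first of the E2F strings. Such matches describe the letters in these windows and are no sign of binding.

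The 5 windows printed below, 5′ to 3′ on the strand of the gene, include the 4 called genes with the smallest p among genes with a window. They are SKA2, CENPF, CENPI and CENPT, the last one lower. KNL1, TTK and BIRC5, called higher at a smaller p than CENPT, had no window. The other window is that of CENPO, whose fold change was closest to 0. Capitals mark CHR and CCAAT letters on either strand. The windows lie at chr17:59155137-59155436 on the minus strand (SKA2), chr1:214602945-214603244 on the plus strand (CENPF), chrX:101100808-101101107 on the plus strand (CENPI), chr16:67847644-67847943 on the minus strand (CENPT) and chr2:24793175-24793474 on the plus strand (CENPO).
SKA2: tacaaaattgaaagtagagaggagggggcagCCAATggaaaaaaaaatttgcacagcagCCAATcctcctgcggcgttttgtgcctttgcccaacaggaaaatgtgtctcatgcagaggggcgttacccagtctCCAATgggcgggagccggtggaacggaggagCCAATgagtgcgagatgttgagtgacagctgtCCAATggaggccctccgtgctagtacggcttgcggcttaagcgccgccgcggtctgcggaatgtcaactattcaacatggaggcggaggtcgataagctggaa
CENPF: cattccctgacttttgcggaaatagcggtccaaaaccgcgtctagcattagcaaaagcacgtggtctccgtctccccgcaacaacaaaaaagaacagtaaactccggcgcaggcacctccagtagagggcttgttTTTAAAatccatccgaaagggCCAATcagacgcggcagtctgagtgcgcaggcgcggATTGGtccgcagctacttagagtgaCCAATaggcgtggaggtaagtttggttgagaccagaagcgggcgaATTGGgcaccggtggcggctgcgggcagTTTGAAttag
CENPI: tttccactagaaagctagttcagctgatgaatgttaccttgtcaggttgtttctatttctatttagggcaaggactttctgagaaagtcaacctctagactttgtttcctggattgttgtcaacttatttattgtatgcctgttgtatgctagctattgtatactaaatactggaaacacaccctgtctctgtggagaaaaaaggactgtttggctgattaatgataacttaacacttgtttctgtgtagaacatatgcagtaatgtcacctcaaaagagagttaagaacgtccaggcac
CENPT: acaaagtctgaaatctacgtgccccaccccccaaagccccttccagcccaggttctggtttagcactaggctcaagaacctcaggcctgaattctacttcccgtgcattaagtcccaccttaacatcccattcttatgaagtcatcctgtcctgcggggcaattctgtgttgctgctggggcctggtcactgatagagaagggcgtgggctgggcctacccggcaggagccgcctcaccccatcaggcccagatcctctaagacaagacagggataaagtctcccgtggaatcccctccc
CENPO: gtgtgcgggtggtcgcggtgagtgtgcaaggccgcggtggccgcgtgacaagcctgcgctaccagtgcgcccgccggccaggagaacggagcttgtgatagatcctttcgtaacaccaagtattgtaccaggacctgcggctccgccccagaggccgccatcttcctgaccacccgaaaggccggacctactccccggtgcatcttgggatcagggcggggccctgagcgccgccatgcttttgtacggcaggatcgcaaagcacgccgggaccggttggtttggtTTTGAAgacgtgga
SKA2 had 5 CCAAT boxes, the nearest with its first base at -53 from the start site, and no CHR letters. CENPF had 4 CCAAT boxes and CHR letters that began at -115 and at 40. The windows of CENPI and CENPT held neither, and CENPO held 1 CHR string at 36. For CENPI the RefSeq start site lies 2870 bases inside the GENCODE gene, so its window does not cover the first start annotated there.

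Among CENP-A and the 13 CCAN genes, 2 were called higher and 1 lower of 14, against 4.90% and 3.73% of all genes tested. Their median log2 fold change was 0.20. CENPI, a CCAN subunit of the CENP-H/I/K/M group (chromosome X of GRCh38, 101098188 to 101166126), had 33.4 and 34.7 CPM with NFATc2 (722 and 805 counts), against 20.4 and 23.1 CPM with NFATc2M (432 and 499 counts). Its groups did not overlap, and the log2 fold change was 0.65 ± 0.15 (SE, edgeR adjusted p = 0.0021). It was called without NFATc2 replicate 1 or NFATc2M replicate 2, and not when either of the other libraries was left out. CENPC, which links the CENP-A nucleosome to the KMN network, had 262 and 221 counts with NFATc2, against 117 and 165 counts with NFATc2M. Its log2 fold change was 0.72 ± 0.22 (SE, edgeR adjusted p = 0.024), and DESeq2 gave 0.72 but no adjusted p. With the offset CENPI had 0.42 and CENPC 0.38, neither called. CENPT, the other CCAN subunit that recruits the NDC80 complex, went the other way. It lies on chromosome 16 (67828157 to 67847811), and exons of a gene on the other strand cover 20.2% of its exons. It had 55.9 and 57.9 CPM with NFATc2 (1208 and 1344 counts), against 87.5 and 73.8 CPM with NFATc2M (1852 and 1598 counts). Both NFATc2 libraries lay below both NFATc2M libraries, for a log2 fold change of -0.50 ± 0.12 (SE, edgeR adjusted p = 0.0029). Of the libraries left out in turn, the call held without NFATc2M replicate 2 and was lost without each of the others, at log2 fold changes from -0.62 to -0.38.

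The CCAN genes of 1 subcomplex had unlike point values, and whether they differ from each other was not tested. In the CENP-O/P/Q/U group, CENPQ had a log2 fold change of 0.59 (edgeR adjusted p = 0.14) on 130 and 177 counts with NFATc2, against 98 and 96 counts with NFATc2M. CENPU stood at 0.40 with the same adjusted p of 0.14 from edgeR, CENPP at -0.09 and CENPO at -0.015. With the GC content and length offset CENPQ had 0.19, CENPU 0.14, CENPP -0.073 and CENPO 0.044, none of them called. Their GC content was 34.0%, 39.2%, 50.3% and 51.8% in that order. CENPO had 133 and 129 CPM with NFATc2, against 142 and 123 CPM with NFATc2M, so the NFATc2 libraries lay between the NFATc2M libraries. CENPO and CENPP have 31.6% and 43.2% of their exonic bases opposite exons of other genes. The partners of CENPI in its group, CENPH, CENPK and CENPM, stood at 0.27, 0.15 and -0.03 on the log2 scale, none of them called. CENPN and CENPL, which form a pair that binds the CENP-A nucleosome, had 0.25 and 0.33, and their groups did not overlap although neither passed. CENPW, the histone-fold partner of CENPT, had 0.09. CENPA itself had 26.6 and 27.9 CPM with NFATc2, against 22.7 and 26.5 CPM with NFATc2M (log2 fold change 0.15 ± 0.15 SE, edgeR adjusted p = 0.62).

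In the KMN network 2 of 9 genes were called higher, against 4.90% of all genes tested. The median log2 fold change of the 9 was 0.35. KNL1, the scaffold that docks the checkpoint kinase BUB1 and its partners, had the largest fold change of the 44. The gene (chromosome 15, 40594020 to 40664342) had 861 and 973 counts with NFATc2, against 423 and 570 counts with NFATc2M. In CPM these were 39.8 and 41.9 against 20.0 and 26.3, a log2 fold change of 0.82 ± 0.15 (SE, edgeR adjusted p = 4.7e-05). KNL1 and SKA2 were called in 3 of the 4 fits with a library left out, the exception being the one without NFATc2M replicate 1 (log2 fold change 0.63 for KNL1). With the GC content and length offset KNL1 had 0.49 (edgeR adjusted p = 0.033).

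SPC25 was the called subunit of the NDC80 complex, with 13.5 and 11.3 CPM with NFATc2 (291 and 262 counts), against 7.23 and 8.09 CPM with NFATc2M (153 and 175 counts). Its log2 fold change was 0.69 ± 0.21 (SE, edgeR adjusted p = 0.021), and DESeq2 gave 0.69 but no adjusted p. With the offset SPC25 had 0.54 and was not called (edgeR adjusted p = 0.14), and with a library left out it ranged from 0.56 to 0.81. NDC80, which carries the microtubule-binding head, had 13.4 and 12.7 CPM with NFATc2, against 7.28 and 10.3 CPM with NFATc2M (log2 fold change 0.56 ± 0.20 SE, edgeR adjusted p = 0.061). Its groups did not overlap. NUF2, the partner of NDC80, and SPC24, the partner of SPC25, had log2 fold changes of 0.10 and 0.13 with overlapping groups. Whether subunits of one complex differ from each other was not tested. In the MIS12 complex, MIS12 had 0.37, DSN1 0.35, NSL1 0.14 and PMF1 -0.22, and each missed the threshold. PMF1 was, beside CENPT, the other gene with both NFATc2 libraries below both NFATc2M libraries, and shares 23.3% of its exonic bases with another gene on the same strand.

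**Figure D4:**
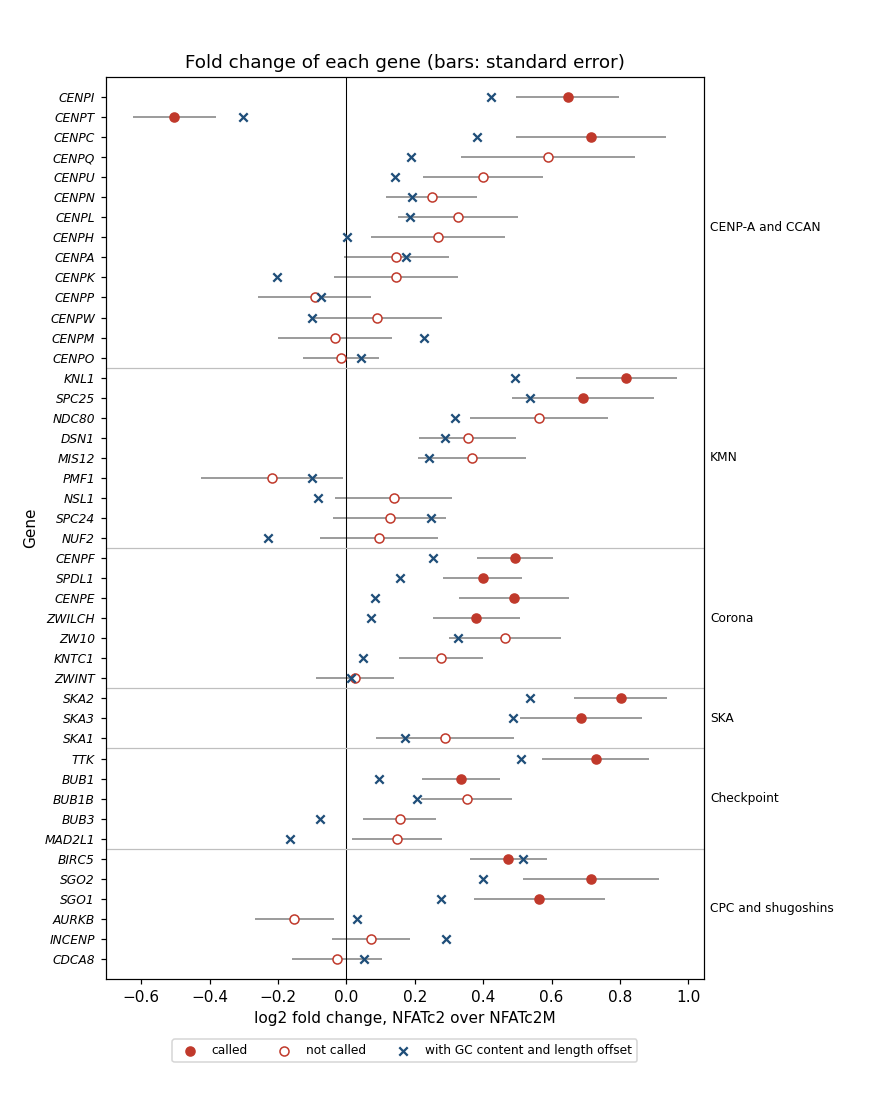
Log2 fold change of NFATc2 over NFATc2M (x axis) for each of the 44 genes by role, with its standard error as a bar (filled circles called, open circles not called) and, as crosses, the value with the GC content and length offset. KNL1 at 0.82 and SKA2 at 0.80 are the largest, CENPT at -0.50 is the one called lower, and the cross of BIRC5 (0.52) lies to the right of its circle (0.47).

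All 7 genes of the fibrous corona and of the motor adaptors had log2 fold changes above 0 (8739 of 17459 over all genes tested), with a median of 0.40. Of the 7, 4 were called higher, against 4.90% of all genes tested. ZWINT was the exception in some other fits. It had -0.011 under upper quartile scaling, -0.0058 under library size scaling, -0.038 without NFATc2 replicate 1 and -0.046 without NFATc2M replicate 2. CENPF, a large coiled-coil protein that binds dynein regulators, had the highest mean CPM of the 44 over the 4 libraries, with 200.4 and 209.6 CPM with NFATc2 (4332 and 4865 counts), against 123 and 168 CPM with NFATc2M (2611 and 3634 counts). Its log2 fold change was 0.49 ± 0.11 (SE, edgeR adjusted p = 0.0017). CENPE, the kinesin that moves chromosomes to the spindle equator, had 27.4 and 26.6 CPM with NFATc2 (593 and 618 counts), against 16.3 and 22.2 CPM with NFATc2M (344 and 481 counts), and the same log2 fold change of 0.49 ± 0.16 (SE, edgeR adjusted p = 0.038). SPDL1, which recruits dynein, stood at 109 and 99.0 CPM with NFATc2 (2352 and 2298 counts), against 70.3 and 87.4 CPM with NFATc2M (1487 and 1891 counts) (log2 fold change 0.40 ± 0.12 SE, edgeR adjusted p = 0.017).

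In CENPF, CENPE and SPDL1 the NFATc2M libraries lay apart, with replicate 1 below replicate 2. The RZZ complex (ROD, ZW10 and Zwilch) builds the corona. ZWILCH had 60.9 and 67.5 CPM with NFATc2 (1317 and 1566 counts), against 43.1 and 55.6 CPM with NFATc2M (912 and 1204 counts), and was called at 0.38 (edgeR adjusted p = 0.042). ZW10 had 0.46 (edgeR adjusted p = 0.058), and KNTC1, the gene of ROD, 0.28 with overlapping groups. ZWINT, which ties KNL1 to the RZZ complex, had 95.4 and 87.1 CPM with NFATc2, against 94.3 and 85.1 CPM with NFATc2M, a log2 fold change of 0.025. CENPF, CENPE, ZWILCH and SPDL1 had 0.25, 0.082, 0.073 and 0.16 with the GC content and length offset, and 0.28, 0.27, 0.20 and 0.24 without NFATc2M replicate 1, and were called in neither fit. Without NFATc2M replicate 2 ZWILCH had 0.58.

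The SKA complex strengthens the grip of the NDC80 complex on microtubules. SKA2 (chromosome 17, 59109857 to 59155260) had 1439 and 1141 counts with NFATc2, against 659 and 762 counts with NFATc2M. In CPM it stood at 66.6 and 49.2 against 31.1 and 35.2, so the NFATc2 libraries differed from each other by more than the NFATc2M libraries did, without overlap between the groups. The log2 fold change was 0.80 ± 0.14 (SE, edgeR adjusted p = 1.7e-05, the smallest of the 44), and 0.54 with the offset (edgeR adjusted p = 0.038). SKA3 had 20.0 and 20.0 CPM with NFATc2 (432 and 465 counts), against 11.3 and 13.5 CPM with NFATc2M (240 and 293 counts) (log2 fold change 0.69 ± 0.18 SE, edgeR adjusted p = 0.0063). With the offset SKA3 had 0.49 and was not called (edgeR adjusted p = 0.095), and with a library left out it ranged from 0.56 to 0.82. SKA1 had 11.7 and 14.4 CPM with NFATc2, against 7.94 and 13.4 CPM with NFATc2M, overlapped between the groups and did not pass. Its log2 fold change of 0.29 turned to -0.05 without NFATc2M replicate 1.

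Of the 5 spindle assembly checkpoint genes 2 were called higher, against 4.90% of all genes tested, and the other 3 did not pass. TTK, the kinase MPS1 that starts the checkpoint signal by phosphorylating KNL1, had 30.1 and 34.7 CPM with NFATc2 (650 and 805 counts), against 18.2 and 20.9 CPM with NFATc2M (385 and 452 counts). Its log2 fold change was 0.73 ± 0.16 (SE, edgeR adjusted p = 7.4e-04), and 0.51 with the offset (edgeR adjusted p = 0.042). With a library left out it ranged from 0.62 to 0.83. BUB1, the kinase that marks the inner centromere for shugoshin, had 102 and 108 CPM with NFATc2 (2195 and 2502 counts), against 80.0 and 85.8 CPM with NFATc2M (1693 and 1858 counts). At a log2 fold change of 0.34 ± 0.11 (SE, edgeR adjusted p = 0.047) it was the called gene nearest the threshold, and limma voom did not call it. BUB1B, the gene of BUBR1, had 0.35 (edgeR adjusted p = 0.077) without overlap between the groups. BUB3, which brings BUB1 and BUBR1 to KNL1, had 176 and 172 CPM with NFATc2, against 151 and 161 CPM with NFATc2M, a log2 fold change of 0.16. MAD2L1, which forms the inhibitor of the anaphase-promoting complex, had 51.2 and 50.1 CPM with NFATc2, against 40.4 and 51.0 CPM with NFATc2M. NFATc2M replicate 2 thus lay between the NFATc2 libraries, and the log2 fold change was 0.15. With the offset BUB1 had 0.094 and was not called, and BUB3 and MAD2L1 had -0.076 and -0.16.

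The chromosomal passenger complex has the subunits INCENP, survivin (BIRC5), borealin (CDCA8) and Aurora B (AURKB). BIRC5, which docks the complex on the centromere and is also known as an inhibitor of apoptosis, lies on chromosome 17 from 78214186 to 78225636. It had 139 and 135 CPM with NFATc2 (2999 and 3129 counts), against 97.2 and 99.8 CPM with NFATc2M (2056 and 2161 counts), the libraries of each group lying close together. The log2 fold change was 0.47 ± 0.11 (SE, edgeR adjusted p = 0.0023). With a library left out it ranged from 0.45 to 0.49 and was called without NFATc2M replicate 2, and with the offset it was 0.52 (edgeR adjusted p = 0.0034, the smallest of the 44 in that fit). AURKB had 95.1 and 81.4 CPM with NFATc2, against 107 and 88.9 CPM with NFATc2M, a log2 fold change of -0.15 ± 0.12 (SE, edgeR adjusted p = 0.45). INCENP had 0.072 and CDCA8 -0.028, both with overlapping groups. With the offset INCENP had 0.29 (edgeR adjusted p = 0.086), CDCA8 0.051 and AURKB 0.032, none of them called. The difference between BIRC5 and its partners was not tested.

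Shugoshins protect centromeric cohesin until anaphase, and both rose. SGO2 had 480 and 458 counts with NFATc2, against 185 and 363 counts with NFATc2M, which in CPM is the largest ratio between the NFATc2M libraries among the 44 genes. Its log2 fold change was 0.72 ± 0.20 (SE, edgeR adjusted p = 0.018), with 1.26 without NFATc2M replicate 2 and 0.31 without NFATc2M replicate 1. SGO1 had 359 and 328 counts with NFATc2, against 200 and 245 counts with NFATc2M (log2 fold change 0.56 ± 0.19 SE, edgeR adjusted p = 0.044), and exons on the other strand cover 15.8% of its exons. DESeq2 called neither, and nor did the fit with the offset, where SGO2 had 0.40 and SGO1 0.28.

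Per kilobase of exons, averaged over the 4 libraries, AURKB (41.6 CPM per kb), ZWINT (38.1), BIRC5 (30.8), INCENP (25.1) and CENPO (23.9) had the highest levels of the set. The lowest were CENPC (1.02 CPM per kb), NSL1 (1.36) and CENPP (2.20). Exons of all annotated transcripts were merged for the length, which came to 13867 bases in NSL1 and 9315 in CENPP. A low value can therefore reflect the annotated length. Of the 5 highest, BIRC5 was called, and AURKB, ZWINT, INCENP and CENPO were not, with log2 fold changes from -0.15 to 0.07.

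Of 40 further genes of kinetochore assembly and regulation 39 were tested. Of these, 7 were called higher and 1 lower, against 4.90% and 3.73% of all genes tested. Their median log2 fold change was 0.21. KIF18A, a kinesin that damps chromosome movement, rose by 0.62 (edgeR adjusted p = 0.0031), CDK1, the mitotic kinase, by 0.51 (edgeR adjusted p = 0.0046), and MAPRE1, a protein of microtubule plus ends, by 0.43 (edgeR adjusted p = 0.0039). CENPX, a histone-fold subunit paired with CENP-S, had 1567 and 1337 counts with NFATc2, against 2038 and 1671 counts with NFATc2M (log2 fold change -0.42, edgeR adjusted p = 0.018). Without NFATc2M replicate 1, edgeR called 0 of the 39. Among 12 markers of G2/M 7 were called higher, led by KIF11 (0.65) and ANLN (0.57), and among 12 of G1/S 2 were, CCNE2 (0.71) and MCM6 (0.34). Over all genes tested 4.90% were called higher. The median log2 fold change was 0.49 over the G2/M list and 0.098 over the G1/S list, and exons on the other strand cover 37.1% of those of CCNE2. The lists also differ in median GC content, with 43.6% for G2/M and 50.9% for G1/S. CCNE2 had 39.9% and MCM6 42.4%. The part of GC content in the phase marker values was not tested, nor was the part of the phase marker shifts in the kinetochore values.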

How the data were processed

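The mRNA libraries of 4 A549 samples were sequenced. Per the labels and the study's methods, the authors aligned reads with HISAT2 to GRCh38, sorted them with SAMtools 1.18 and counted them per Ensembl gene with HTSeq 0.11.2; the deposited values are raw counts per gene. Strand handling is not given in the sources used here. Columns were matched to samples by name, and 4 value columns without sample names, holding the same counts in the opposite group order, were not used. The 5 HTSeq summary categories (56.4% to 57.4% of each library) were left out.

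Genes passing filterByExpr were scaled by TMM and tested in R 4.3.3 with edgeR 4.0.16 (robust glmQLFit, glmQLFTest; 2 residual degrees of freedom), with Benjamini-Hochberg adjustment over all 17459 genes. The code was tested on simulated data. Alternatives used DESeq2 1.42.0, limma 3.58.1, other scalings, no filter, a replicate block, a GC content and length offset (splines with 5 degrees of freedom), a stricter threshold, and each library left out, where the lone library of a group is assumed to vary like the other group. Positions, exonic lengths and GC content come from GENCODE on GRCh38. The text names every member, the called partner genes with the smallest p (up to 4 per direction) and 2 markers per phase. Of these, 1 is not reported here. The members and lists were chosen with earlier results of these data known. Figures used matplotlib 3.10.9.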

Additional observations from a re-analysis of the deposited data

How the results depend on the processing

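Of the 44 kinetochore genes 16 were called. The count was 10 with DESeq2 (39 of the 44 got an adjusted p there, and CENPC, CENPQ, SPC25, NDC80 and PMF1 did not), 4 with the GC content and length offset, 4 with that offset and a replicate block, 8 at an adjusted p of 0.01, and 0 to 20 with 1 library left out. Their median log2 fold change of 0.33 was 0.18 with the offset, with or without the block. Over all genes the 1508 calls became 360 with the offset, 341 with offset and block, 591 at the stricter threshold and 73 to 1963 with a library left out. In the same order, the 8 partner genes became 1, 0, 4 and 0 to 10. The cause was not tested, apart from the stricter threshold. The replicate block gave 17 calls among the 44 and 1759 over all genes, and DESeq2 gave 1024 over all genes. The labels do not state what a shared number means. The deviations of same-numbered libraries correlated at r = 0.053, which with 2 libraries per group cannot decide whether they were paired.

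Signs turned for genes that were not called. With the offset the log2 fold change was -0.20 for CENPK, -0.10 for CENPW, 0.23 for CENPM, 0.044 for CENPO, -0.084 for NSL1, -0.23 for NUF2, -0.076 for BUB3, -0.16 for MAD2L1, 0.032 for AURKB and 0.051 for CDCA8. With the replicate block and the offset it was -0.0066 for CENPH, -0.20 for CENPK, -0.10 for CENPW, 0.24 for CENPM, 0.045 for CENPO, -0.11 for NSL1, -0.23 for NUF2, -0.076 for BUB3, -0.16 for MAD2L1, 0.032 for AURKB and 0.050 for CDCA8. ZWINT had -0.011 with upper quartile scaling and -0.0058 with library size scaling. With 1 library left out the values ranged from -0.30 to 0.082 for CENPP, -0.028 to 0.20 for CENPW, -0.15 to 0.38 for NSL1, -0.058 to 0.23 for NUF2, -0.046 to 0.094 for ZWINT, -0.041 to 0.19 for INCENP, -0.079 to 0.019 for CDCA8, -0.28 to 0.26 for CENPM, -0.11 to 0.086 for CENPO, -0.047 to 0.72 for SKA1 and -0.017 to 0.33 for MAD2L1. DESeq2 size factors, limma voom, the other scalings and no filter each gave 11 to 16 calls among the 44. Over all genes these fits gave 1263 to 1591.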
